A study of Homo sapiens with 2 samples.

Results

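Potassium channel genes were taken as all genes whose symbol starts with KCN, goes on in capital letters and ends in a number, which gave 95 of the 61487 genes listed for both libraries. They form 20 subfamilies named by the letters after KCN, from KCNA to KCNV. A further 27 KCN symbols, mostly antisense or intronic transcripts, lie outside this rule. The cells were serotonin neurons (SNs) grown from H9 (WA09) human embryonic stem cells, an established line, and both libraries carried EGFP inserted at the TPH2 gene. EGFP-positive cells were collected by flow sorting at day 42 and profiled as single cells by 10x Genomics 3' chemistry (v3), where a molecular tag, the UMI, marks every transcript molecule that was caught. 1 library came from wild-type cells (WT) and 1 from cells in which FOXA2 had been disrupted with CRISPR/Cas9 (FKO). The reporter line of the FKO group was built on an edited line with an indel that shifts the FOXA2 reading frame, so 1 edited line stands for the knockout. The dose of the SHH agonist purmorphamine used for these particular libraries is not given in the sources used here. At day 42 the study describes 1 staining with a lower dose for WT than for FKO cells and another with both doses; if the libraries followed the first, dose and genotype cannot be told apart.

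Of the 11052 barcodes and 123064653 UMIs in the library labelled WT, 5750 cells with 76812290 UMIs (median 12459 per cell) were kept. For the library labelled FKO the values were 8806 barcodes and 70588747 UMIs, of which 6978 cells with 57909575 UMIs (median 6927) were kept. To be kept, a cell needed 1000 UMIs and 500 genes or more, a mitochondrial share no higher than 10%, and a doublet score outside the top of its library. The median mitochondrial share was 7.82% and 5.33%. Among kept cells, 5 barcodes occurred in both libraries. Levels are given as CPM, the UMIs of a gene summed over kept cells and scaled to the total UMIs of those cells. With 1 library per condition there was no replicate and no test; every interval is an exact 95% interval that covers counting error only.

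FOXA2 (ENSG00000125798) stood at 4.35 CPM (334 UMIs) under the WT label and at 21.8 CPM (1265 UMIs) under the FKO label, a log2 ratio of FKO over WT of 2.33 (2.15 to 2.51). A frameshift leaves the 3' end of the transcript countable, so this value does not check the edit, but its direction is opposite to the label. Whether the labels of the libraries were exchanged was not tested. Both libraries are therefore called by their labels, and if these were exchanged every sign below would turn. All 10 serotonergic markers had UMIs in both, with a summed level of 2997 CPM in WT and 2530 CPM in FKO. TPH2, the enzyme of serotonin synthesis, was at 198 and 161 CPM, and FEV, the ETS factor of these neurons, at 1584 and 908 CPM, while GATA3 was at 595 and 817 CPM.

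Potassium channels let potassium leave the cell along its gradient and so repolarize the membrane after a spike, set the resting potential and pace firing. Voltage-gated families (KCNA to KCND, KCNH and KCNQ) open on depolarization, KCNMA and KCNN open with calcium, KCNJ channels conduct inward rectifying current and KCNK channels carry background leak. In serotonin neurons of the brain, SK channels and A-type current shape slow regular firing, and GIRK channels are opened by the 5-HT1A autoreceptor to silence the cell.

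Together the 95 genes gave 35737 UMIs in WT and 55874 in FKO, as labelled. This is 465 CPM (460 to 470) against 965 CPM (957 to 973), a log2 ratio of 1.05 (1.03 to 1.07). As a share of all UMIs the channels made up 0.0465% and 0.0965%. The whole transcriptome was shifted as well: the median log2 ratio of the 9676 genes with at least 10 CPM in either library was 0.47. Relative to that median the summed channel level was 0.58 higher. This shift of 0.47 is what scaling by the median gene takes off, and values "relative to all genes" below have it removed.

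Levels were very uneven among members. Of the 95, 5 had no UMI in either library (KCNA10, KCNJ1, KCNJ18, KCNK16 and KCNK18), where the limit that a count of 0 allows (3 UMIs) is 0.0391 CPM in WT and 0.0518 CPM in FKO. Another 10 had 1 to 3 UMIs in at least 1 library and no more than 3 in the other. In all, 40 stayed under 1 CPM in both, 32 reached between 1 and 10 CPM, and 23 reached at least 10 CPM in either library. The 10 most abundant members held 62.0% of channel UMIs in WT and 62.8% in FKO, so the concentration on a few genes was much alike in both libraries.

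Among the 23 members with at least 10 CPM, of which 6 passed the limit in FKO only, 21 were higher in the library labelled FKO, where 72.6% of all genes were. At least 2-fold higher were 11 of the 23, beside 20.7% of all genes, and at least 2-fold lower were 0, beside 1.74%. Their median log2 ratio was 0.995, and 0.52 relative to all genes. With the median gene set to 0, 17 of 23 remained above it, by construction beside 50% of all genes. On that scale 6 members were at least 2-fold higher, against 5.75% of all genes, and 0 at least 2-fold lower, against 9.7%. With a limit of 1 CPM, which 16 of 55 members passed in FKO only, 29 of the 55 were at least 2-fold higher (29.5% of all genes) and 0 at least 2-fold lower (2.34%). A member that passed a limit in FKO only had to be higher there, so these counts describe the members and are no test.

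**Figure D1:**
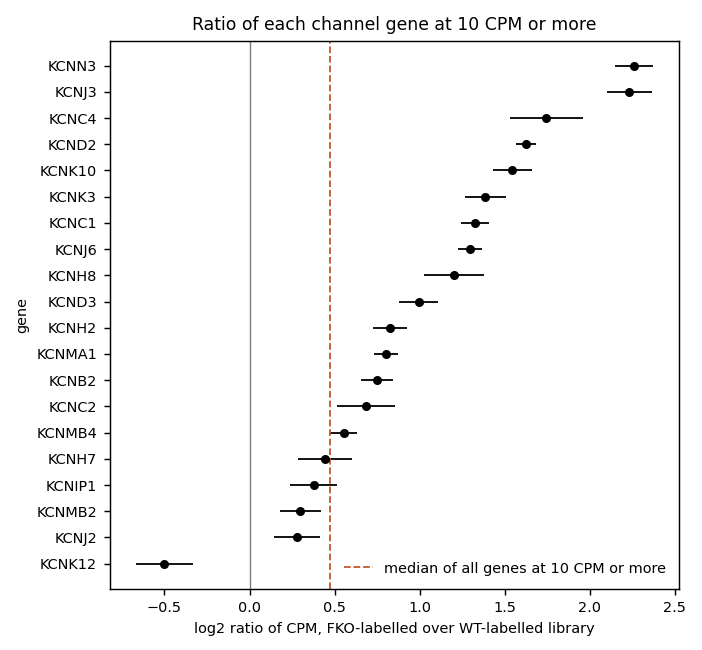
Log2 ratio of CPM (FKO-labelled over WT-labelled library) for 20 of the 23 channel genes with at least 10 CPM in either library; bars are exact 95% counting intervals, the grey line is 0 and the dashed line the all-gene median of 0.47. The points run from KCNK12 at -0.50 to KCNN3 at 2.26, and 15 of the 20 lie right of the dashed line.

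The 5 members with at least 50 CPM in either library were KCND2 (ENSG00000184408, chromosome 7), KCNJ6 (ENSG00000157542, chromosome 21), KCNMA1 (ENSG00000156113, chromosome 10), KCNC1 (ENSG00000129159, chromosome 11) and KCNN3 (ENSG00000143603, chromosome 1). The last 100 bases before the annotated start of each are shown, since these were the most abundant members. Only 1 annotated start per gene was used. Sequences are from RefSeq (GRCh38.p14), read 5' to 3' on the strand of the gene, and capitals mark CG dinucleotides, of which KCNC1 has 16, KCNMA1 13, KCNJ6 12, KCND2 8 and KCNN3 2. The windows are chr7:120273075-120273174 (plus strand), chr21:37916458-37916557 (minus), chr10:77637809-77637908 (minus), chr11:17734681-17734780 (plus) and chr1:154870282-154870381 (minus).
KCND2: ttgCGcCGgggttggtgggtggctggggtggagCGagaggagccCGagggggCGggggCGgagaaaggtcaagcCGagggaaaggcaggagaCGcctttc
KCNJ6: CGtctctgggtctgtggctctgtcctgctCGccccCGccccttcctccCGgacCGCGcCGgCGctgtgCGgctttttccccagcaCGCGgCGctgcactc
KCNMA1: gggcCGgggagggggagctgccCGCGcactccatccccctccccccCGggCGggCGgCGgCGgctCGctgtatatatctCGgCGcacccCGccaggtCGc
KCNC1: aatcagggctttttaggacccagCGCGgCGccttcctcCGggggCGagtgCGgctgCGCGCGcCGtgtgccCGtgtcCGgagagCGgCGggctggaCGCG
KCNN3: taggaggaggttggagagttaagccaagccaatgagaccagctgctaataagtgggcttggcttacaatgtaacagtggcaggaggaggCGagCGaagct

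RefSeq held a promoter for 71 of the 95 members. Over the 250 bases before the start their median was 15 CG dinucleotides, against 18 in 15189 promoters of protein-coding genes and 11 in all promoters. Both strands of these bases were searched for short motifs of the factor families to which FOXA2, GATA3 and FEV belong. The FOXA letters, TGTTTAC, were in 0 of 71 channel promoters and in 2.98% of all 27305 promoters. For the GATA family the letters were AGATAA, which occurred in 1 of 71 channel promoters (KCNC2) beside 9.37% of all. The ETS family was searched by the letters CCGGAA, found in 5 of 71 channel promoters beside 14.8% of all. These matches describe letters only, and no binding was measured. Some members with at least 10 CPM, such as KCNB2 and KCNMB4, had no promoter in this set. Of those that had one, 3 had a match, shown with the motif in capitals as it reads on the gene's strand: KCNC2 at chr12:75210060-75210089 (minus), KCNH8 at chr3:19148322-19148367 (plus) and KCNK10 at chr14:88326951-88326996 (minus).
KCNC2: ctttAGATAAccgtggtgtggtggctggag
KCNH8: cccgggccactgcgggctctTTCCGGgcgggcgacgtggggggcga
KCNK10: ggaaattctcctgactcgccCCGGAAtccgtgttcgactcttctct

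By subfamily, KCND and KCNJ had the highest summed CPM in both libraries. KCND, the A-type channels, stood at 55.8 CPM in WT and 158 CPM in FKO, and KCNJ, the inward rectifiers, at 59.9 and 149 CPM. At the other end KCNU had 1 UMI in WT and none in FKO, and KCNV stayed at 0.299 and 0.328 CPM. The largest ratio among subfamilies above 10 CPM was that of KCNN, the small-conductance calcium-activated channels, at 1.94 (1.85 to 2.04), or 1.47 relative to all genes. Of 13 subfamilies with at least 10 CPM in either library, 12 stood above the median gene and 1 below it. Subfamilies therefore did not move by a common factor.

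**Figure D2:**
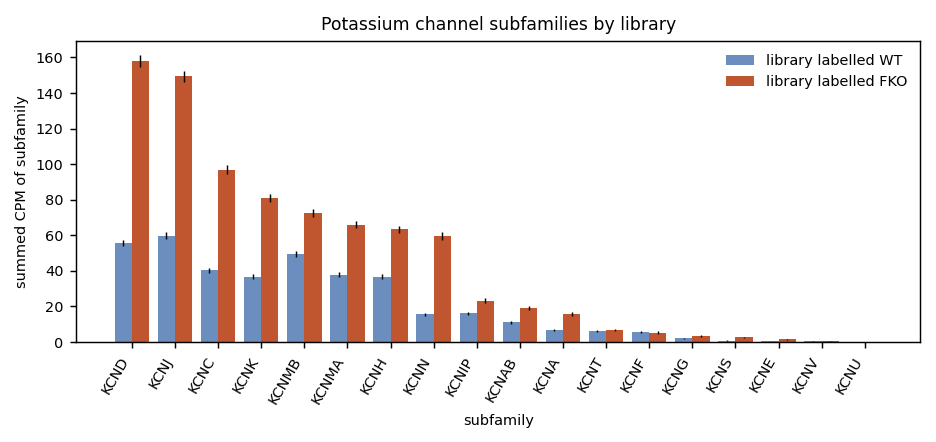
Summed CPM of 18 of the 20 potassium channel subfamilies in the library labelled WT (blue) and that labelled FKO (red); bars start at 0 and error bars are exact Poisson 95% intervals. KCND and KCNJ are the tallest in both, and KCNU is the lowest.

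KCND2, which encodes the pore of the somatodendritic A-type channel Kv4.2, had 3226 UMIs (41.998 CPM) in WT and 7507 UMIs (130 CPM) in FKO. Its log2 ratio was 1.63 (1.57 to 1.69), and 1.15 relative to all genes. KCND3 (Kv4.3), which gives a current of the same kind, was at 13.6 and 27.1 CPM, a ratio of 0.995 (0.88 to 1.11). KCND2 alone made up 75.2% of KCND UMIs in WT and 82.0% in FKO, so the subfamily value is mainly its own.

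Genes of the KCNB and KCNC subfamilies differed as well. KCNB2 stood at 21.1 CPM in WT and 35.6 CPM in FKO, a log2 ratio of 0.75 (0.66 to 0.84). KCNC1, a Kv3 channel of fast-spiking cells, was at 23.8 and 59.5 CPM (1.32, 1.24 to 1.41). KCNC2, with 522 and 632 UMIs, had a ratio of 0.68 (0.51 to 0.85), and KCNC4, with 254 and 641 UMIs, one of 1.74 (1.53 to 1.96). The intervals of KCNC2 and KCNC4 did not overlap, so these paralogs differed in their ratio beyond counting error.

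KCNA genes, the Kv1 channels of axons, were low throughout, and 0 of 8 reached 10 CPM. KCNA4 was at 1.08 and 4.25 CPM, KCNA2 at 1.11 and 4.23 CPM, and KCNA1 had 1 UMI in WT and 6 in FKO. Unlike these, KCNA3 had fewer UMIs in FKO (125) than in WT (221), a ratio of -0.41 (-0.74 to -0.09). In the KCNH subfamily, KCNH2 (hERG) was highest with 18.7 and 33.1 CPM, a ratio of 0.83 (0.73 to 0.92). The 10 silent subunits of KCNF, KCNG, KCNS and KCNV, which modify KCNB channels and form no pore of their own, summed to 8.46 and 11.8 CPM, a ratio of 0.48 (0.32 to 0.64). Within this sum KCNF was at -0.03 (-0.25 to 0.19), KCNG at 0.79 (0.48 to 1.10) and KCNS at 1.88 (1.43 to 2.36). The direction of KCNG was not stable: it was -0.89 at most 5% mitochondrial UMIs, 0.16 with clusters weighted equally and 1.72 without clusters 5, 8 and 9.

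M-type current, which opens below spike threshold and restrains repeated firing, is carried by channels of the KCNQ subfamily. KCNQ3 had 26 UMIs in WT (0.338 CPM) and 566 in FKO (9.77 CPM). This ratio of 4.85 (4.29 to 5.48) was the largest among the 24 named members, although KCNQ3 stayed just under the limit of 10 CPM. KCNQ3 held only a minor part of the KCNQ UMIs in each library, so its ratio is not that of the subfamily. KCNQ5 had 8 and 14 UMIs, with an interval of -0.14 to 2.67.

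Of the calcium-activated channels, KCNN3 (SK3), which makes the afterhyperpolarization that follows a spike, had 827 UMIs (10.8 CPM) in WT and 2991 (51.7 CPM) in FKO. The log2 ratio of 2.26 (2.15 to 2.38) was the highest among the 23 members with at least 10 CPM, with KCNJ3 next to it at 2.23 (2.10 to 2.36); these intervals overlap. By contrast KCNN1 (3.27 and 5.42 CPM) and KCNN2 (1.43 and 2.35 CPM) had ratios of 0.73 and 0.71, so most of the difference of the subfamily lay in KCNN3, with 69.6% of its UMIs in WT and 86.7% in FKO. This contrast was smaller at most 5% mitochondrial UMIs, where KCNN2 was at 1.75 and KCNN3 at 2.07, and KCNN1 was at 1.30 in thinned cells. KCNMA1, the pore of the large-conductance BK channel, was at 37.8 and 66.0 CPM, a ratio of 0.80 (0.73 to 0.87) and 0.33 relative to all genes. The sodium-activated KCNT2 was level, with 5.94 and 5.78 CPM and an interval of -0.25 to 0.17.

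GIRK channels are built from KCNJ3, KCNJ5, KCNJ6 and KCNJ9, and the 4 genes summed to 43.3 CPM in WT and 124 CPM in FKO. KCNJ6 (GIRK2) stood at 34.1 CPM (2617 UMIs) and 83.7 CPM (4849 UMIs), a ratio of 1.30 (1.23 to 1.37). KCNJ3 (GIRK1), with which it pairs, stood at 7.94 CPM (610 UMIs) and 37.3 CPM (2161 UMIs). These subunits were thus both higher in FKO, KCNJ3 by the larger factor. KCNJ9 reached only 1.08 and 2.19 CPM and KCNJ5, the cardiac subunit, 13 and 32 UMIs. KCNJ2, a strong inward rectifier, was at 12.2 and 14.9 CPM, and its ratio of 0.28 (0.15 to 0.42) becomes -0.19 relative to all genes. KCNJ12 had 135 and 243 UMIs, but KCNJ18 is a near-identical copy, so their counts are uncertain. Pores of the ATP-sensitive channel, KCNJ8 and KCNJ11, summed to 1.29 and 3.09 CPM.

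Leak channels of the KCNK subfamily divided as well. KCNK10 (TREK-2) was at 12.1 CPM in WT and 35.4 CPM in FKO, a ratio of 1.54 (1.43 to 1.66), and KCNK3 (TASK-1) at 11.4 and 29.9 CPM, a ratio of 1.39 (1.27 to 1.51). KCNK2 and KCNK9, the TREK-1 and TASK-3 channels, had 28 and 47 UMIs in WT and 144 and 170 in FKO. KCNK12 (THIK-2), the lowest of the 23, went the other way with 11.0 and 7.77 CPM, a ratio of -0.50 (-0.67 to -0.33), or -0.98 relative to all genes.

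Auxiliary subunits, which trim the gating of a pore without conducting, differed less in sum. The 16 genes of KCNAB, KCNE, KCNIP and KCNMB had a summed ratio of 0.59 (0.54 to 0.65), against 1.13 (1.11 to 1.15) for the 79 pore-forming and silent members, and 0.12 and 0.65 relative to all genes. KCNMB4, the neuronal BK subunit, was at 33.5 and 49.2 CPM, a ratio of 0.55 (0.48 to 0.63). KCNMB2 (0.30) and KCNIP1 (0.38), a partner of Kv4 channels, were above 0 but stood at -0.18 and -0.10 relative to all genes. Scarcer ones lay on both sides of the pore sum: KCNMB1 (27 and 122 UMIs) at 2.58, KCNMB3 (51 and 168) at 2.13 and KCNAB3 (66 and 150) at 1.59, but KCNIP3 (61 and 78) at 0.76, KCNIP2 (123 and 163) at 0.81 and KCNIP4 (183 and 255) at 0.89. Most KCNMB1 UMIs lay in clusters 5, 8 and 9. In WT cluster 8 held 18 of them, and in FKO these clusters held 35, 30 and 21. KCNAB genes summed to 11.0 and 18.9 CPM, and the 5 KCNE genes had only 32 and 87 UMIs, a ratio of 1.85 (1.25 to 2.48). Auxiliary subunits made up 16.5% of channel UMIs in WT and 12.0% in FKO. The sources used here do not say that strand was used in counting, so members with an antisense gene, such as KCNMB2 and KCNJ2, may share counts with it.

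Detection in single cells was compared after each cell was thinned to 2000 UMIs, since cells of the library labelled FKO were shallower; 43 WT and 116 FKO cells below that depth were left out. Before thinning, KCND2 had a UMI in 35.4% of kept WT cells and 52.5% of kept FKO cells. At equal depth the shares were 7.50% (6.83 to 8.21) and 21.1% (20.1 to 22.1). KCNJ6 was found in 6.13% and 14.2% of thinned cells and KCNN3 in 1.87% and 8.98%. KCNQ3 was seen in 3 of 5707 WT cells and 124 of 6862 FKO cells. Detection thus followed the CPM for these genes.

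KCNMA1 shows why depth mattered. It was detected in 37.2% of WT and 38.0% of FKO cells as sequenced, but in 7.31% (6.64 to 8.01) and 11.7% (11.0 to 12.5) at equal depth. A median cell had 5 members with a UMI in either library before thinning and 1 in WT against 2 in FKO after it. Thinned cells without any channel UMI made up 41.1% in WT and 17.4% in FKO.

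As a measure of free RNA, the same shares were taken in cluster 8, a small floor plate-like group led by SHH, CORIN and SPON1, with median depths of 15897 UMIs in WT and 10849 in FKO. KCNJ6 was in 0 of 82 WT cells and 1 of 72 FKO cells there, and KCND2 in 1 and 5. KCNN3 was in 1.22% (1 of 82) and 6.94% (5 of 72) of these cells, close to its shares in all cells. KCNMA1 was likewise in 12.2% and 12.5% of these cells, at or above its share in all cells. Cluster 5, which mixes collagen and cycling genes with neuronal ones, was no clean background: KCND2 was in 1.69% of its WT cells and 12.5% of its FKO cells, and KCNJ6 in 6.46% and 12.1%.

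**Figure D3:**
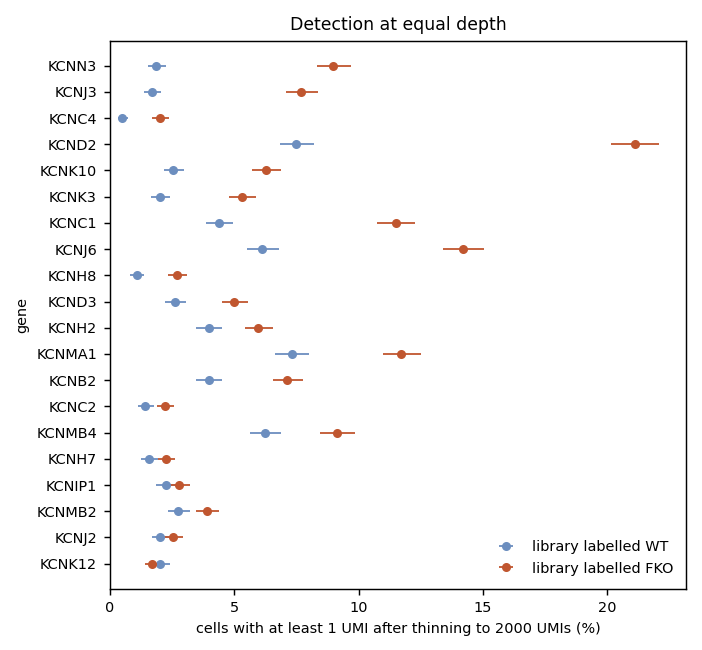
Share of cells (%) with at least 1 UMI of each of 20 channel genes after thinning every cell to 2000 UMIs, in the library labelled WT (blue) and that labelled FKO (red); bars are exact Clopper-Pearson 95% intervals. KCND2 has the widest gap, 7.50% against 21.1%, while KCNK12 lies slightly higher in WT with overlapping bars.

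Cells were clustered on variable genes from which all members had been left out, giving 9 clusters, of which 8 had at least 50 cells of each library. Cluster 9 (101 cells, led by OLFML2A and APLNR) was of the library labelled FKO only and is not compared. In 8 of 8 clusters the summed channel CPM was higher in FKO, with log2 ratios from 0.86 in cluster 8 to 1.16 in cluster 6, a glycolytic group led by HK2 and SLC16A3. Relative to each cluster's own median gene these ratios ran from 0.32 in cluster 7, where ATF3, DDIT3 and CHAC1 lead, to 0.66 in cluster 6. Cluster sizes differed between the libraries, as in cluster 4 with 295 WT and 1265 FKO cells, and their part in the summed difference was not tested.

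The level itself also varied between clusters. Cluster 4, led by ONECUT3, KCTD16 and EBF1, had the most channel UMIs, 647 CPM in WT and 1240 CPM in FKO. Among compared clusters the least were in cluster 8, with 341 and 618 CPM, and cluster 9 had 396 CPM. Cluster 2, led by SLC17A8 and COL5A2, had 359 and 764 CPM. So cluster 4 of the library labelled WT still lay below every compared FKO cluster but cluster 8.

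Single members were checked in the same way. Of the 23 with at least 10 CPM, 14 were higher in FKO in each of the 8 clusters, beside 51.7% of all genes, and 10 were above the cluster's median gene in each, beside 26% of all genes. KCNN3, KCNJ3, KCNK3, KCND2, KCNH2, KCNC1, KCNK10 and KCNJ6 were among these 10. KCND2 ran from 1.53 in cluster 1 (60.3 and 174 CPM) to 3.78 in cluster 8, where WT had 4 UMIs. KCNN3 ran from 2.09 in cluster 6 to 3.07 in cluster 7, there with 5 WT UMIs.

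Members were also compared between clusters. At least 2-fold higher in cluster 4 than in the other kept cells of both libraries were 3 of 23 members, KCNJ6, KCNJ2 and KCNMB2, beside 0.289% of all genes. KCNJ6 was at 107 CPM there against 30.4 elsewhere in WT, and 196 against 62.5 in FKO. In cluster 8 it was 1 of 23, no larger a share than the 5.04% of all genes. None of the 23 passed in clusters 1, 2, 3, 5, 6 and 7, where 0.186%, 0.258%, 0.207%, 1.74%, 0.32% and 0.506% of all genes did.

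**Figure D4:**
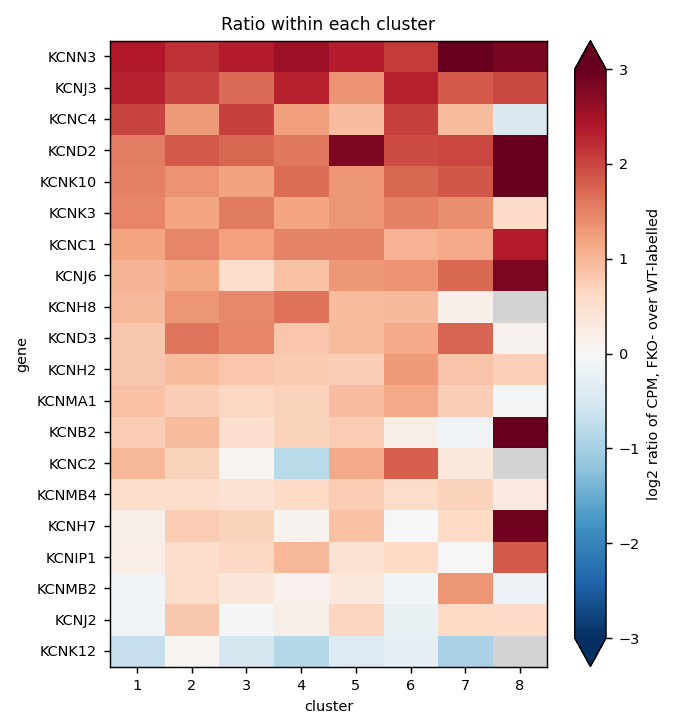
Log2 ratio of CPM (FKO-labelled over WT-labelled) of 20 channel genes (rows, ordered by their overall ratio) within the 8 compared clusters (columns); red is higher in FKO, blue higher in WT, values past 3 share the end colour and grey has no value. The rows of KCNN3 and KCNJ3 are red throughout.

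Other markers moved with the label as well. The 6 mesenchymal markers, all with UMIs in both libraries, summed to 37.6 CPM in WT (LUM the most abundant at 12.1) and 253 CPM in FKO (COL1A2 at 85.2). The 5 cycling markers summed to 53.2 and 70.3 CPM, with CENPF the most abundant at 18.3 and 27.0, and the 4 astroglial ones to 8.94 CPM (SLC1A3 at 5.74) and 42.5 CPM (S100B at 34.0); all had UMIs in both. Oligodendrocyte precursor markers summed to 1.37 CPM in WT (OLIG2 at 0.768), where SOX10 was at 0, and 13.1 CPM in FKO (SOX10 at 7.11). Among other neurons, the 5 LIM-homeodomain markers summed to 8.31 CPM in WT (ISL1 at 2.36) and 31.7 CPM in FKO (LHX1 at 11.2), and the 6 noradrenergic or cholinergic ones to 18.7 and 8.31 CPM, mostly TH (16.8 and 7.53). The 3 glutamatergic markers summed to 169 and 128 CPM, nearly all SLC17A8 (167 and 120), and the 4 GABAergic or glycinergic ones to 2.24 and 4.44 CPM, led by GAD1 (1.38 and 2.16), with SLC6A5 at 0 in WT. The 6 floor plate markers summed to 49.2 and 74.5 CPM, with SPON1 the most abundant at 27.8 in each. The part of these cell types in the channel difference was not tested. Without clusters 5, 8 and 9, a choice made after the data had been seen, the summed channel ratio was 1.10 and 12 of 23 members were at least 2-fold higher, beside 20.7% of all genes. Pan-neuronal markers summed to 6771 and 8890 CPM, led by STMN2 at 4391 and 5649, a ratio of 0.39 that is below the median gene, and all 5 had UMIs in both.

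Depth and mitochondrial share differed between the libraries, so ratios were repeated within bands. Over 4 bands of UMIs per cell, split at 5000, 10000 and 20000, the summed channel ratio lay between 0.96 and 1.17. For mitochondrial shares of 0 to 5, 5 to 10 and 10 to 20% it was 1.19, 0.99 and 1.06. The channels were thus higher in FKO in every band, but not by equal amounts: the intervals of 0 to 5% (1.12 to 1.26) and 5 to 10% (0.97 to 1.02) did not overlap, nor did those of 5000 to 10000 UMIs (1.13 to 1.22) and 10000 to 20000 UMIs (1.04 to 1.09). Single genes could move more: at most 5% mitochondrial UMIs, which leaves 340 WT cells, KCNJ3 had a ratio of 3.63 and KCND2 of 2.24.

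Gene length moved with the ratio across the transcriptome. The median log2 ratio of all genes was 0.08 below 30 kb, 0.58 from 30 to 100 kb, 0.83 from 100 to 300 kb and 1.01 above 300 kb. Channel genes with at least 10 CPM had a median length of 170 kb, against 36.3 kb for all genes at that level. In the same bands their medians were 0.77 (2 members), 0.69 (6), 1.54 (7) and 0.78 (8). Set against the genes of its own band, 14 of 23 members were above the median, where by construction as many genes lie above as below. Of the 23, 4 were at least 2-fold above that median (5.88% of all genes) and 1 at least 2-fold below it (5.51%). Fewer members thus stood above genes of like length than above the median of all genes (14 against 17), and above 300 kb the channel median was the lower one. Whether intronic reads entered the counts is not given in the sources used here, and the part of length in these ratios was not tested.

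**Figure D5:**
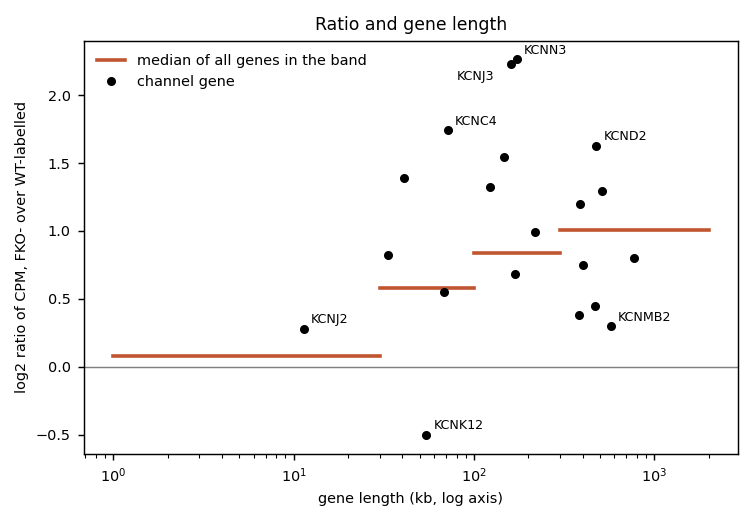
Log2 ratio of CPM (FKO-labelled over WT-labelled) against gene length (kb, log axis) for 20 channel genes (points), with the median of all genes in each length band as red lines rising from 0.08 to 1.01. KCNN3 and KCNJ3 stand highest above their line, while KCNMB2 and KCNK12 lie below theirs.

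Partners of these channels, a list of 40 auxiliary, scaffold, receptor and ion transport genes, gave a similar picture. Of 24 with at least 10 CPM, 21 were higher in FKO (72.6% of all genes), 10 at least 2-fold higher (20.7%) and 0 at least 2-fold lower (1.74%), and their median was 0.94, or 0.47 relative to all genes. Some partners, such as DPP6, passed the limit in FKO only and had to be higher there, so these counts are no test. DPP6, a Kv4 partner that speeds A-type current, was at 6.90 and 29.8 CPM (2.11, 1.97 to 2.25), and DPP10 at 24.5 and 42.4 CPM. HTR1A, the autoreceptor that opens GIRK channels, had 22 and 112 UMIs, or 0.286 and 1.93 CPM. GABBR2, a subunit of the GABA-B receptor that also opens them, was at 14.4 and 58.0 CPM (2.01, 1.91 to 2.11), and GABBR1 at 54.7 and 98.2 CPM. CNTNAP2, which clusters Kv1 channels on axons, was at 58.3 and 129 CPM. The receptor SSTR2 was at 117 and 179 CPM, and GNB5, a G protein subunit, at 38.2 and 78.9 CPM. Receptors that open GIRK channels did not all move alike. HTR1B (263 and 555 UMIs) and ADRA2A (76 and 387) were also above the median gene. HTR1D (480 and 426 UMIs) had a ratio of 0.24 and OPRM1 (134 and 128) one of 0.34, or -0.24 and -0.13 relative to all genes.

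ANK3, the anchor of the axon initial segment, was at 428 and 823 CPM (0.94, 0.92 to 0.96). Some partners stood below the median gene. The lowest of those with at least 10 CPM was LRRC26, an auxiliary subunit of the BK channel, at 14.2 and 9.95 CPM (-0.52, -0.66 to -0.37). The sodium pump subunit ATP1B1 (271 and 340 CPM) had a ratio of 0.33. SLC12A5, the potassium-chloride cotransporter KCC2, was at 83.7 and 70.0 CPM (-0.26, -0.31 to -0.20), and DLG4, the scaffold PSD-95, at 56.5 and 51.1 CPM (-0.14, -0.21 to -0.08).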

How the data were processed

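For 2 libraries, the values used were the deposited UMI counts for every gene in every barcode, with no normalization; per the file headers they were written by Cell Ranger 7.1.0, while the submitters' processing notes name Cell Ranger 7.0 and GRCh38. Whether introns were counted is not stated there. From these counts, cells were filtered as given above, and Scrublet (scanpy 1.11.5) scores marked 977 WT and 620 FKO barcodes as doublets, a share of 0.8% per 1000 barcodes. Clustering used Seurat 5.3.0 in R 4.3.3 with CCA integration, 2000 variable genes, 30 dimensions and resolution 0.2. A count of 0 stood at 3 UMIs in a ratio, and no ratio was given where both counts were at or below that or where the bound said nothing of direction. Gene lengths came from GENCODE 29, matched by identifier for 95 of 95 members. Ratios and intervals were tested on simulated data. Named members were those with at least 50 CPM, the 3 highest and 3 lowest ratios at 10 CPM or more, and subunits of known serotonin neuron currents. Other members and partners given by name, apart from partners at 50 CPM or more and HTR1A, were picked once their values were known. A few members and partners entered the sums and counts but are not reported here by name or shown in figures. Members and lists were chosen with earlier results of these data known. Alternatives changed cell filters, scaling, depth, pooling, limits and clustering.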

Additional observations from a re-analysis of the deposited data

Results flagged for a closer look

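Within clusters, 2 members named here had counting intervals on opposite sides of 0, which singled them out; the differences between clusters were not tested. KCNC2, a Kv3 channel, had its highest log2 ratio of FKO over WT, 1.80, in cluster 6 on 11 and 13 UMIs and its lowest, -0.81, in cluster 4, where it was most abundant with 31.2 CPM in WT and 17.8 CPM in FKO. KCNIP4, a Kv4 partner, was highest at 3.88 in cluster 6 on 1 and 5 UMIs and lowest at -2.11 in cluster 4 on 14 and 8 UMIs. In cluster 5, with 96 and 67 UMIs, it was at -1.09. It was at 2.65 in cluster 1 on 25 and 97 UMIs, and at 1.23 in cluster 3 on 36 and 64 UMIs.

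KCN symbols outside the rule were not counted as members, though KCNRG was in the list of partners. Together these symbols held UMIs above what a count of 0 allows: 14776 in the library labelled WT and 37454 in that labelled FKO. Most were KCNQ1OT1, the long noncoding antisense RNA of the KCNQ1 locus, at 167 CPM in WT and 616 CPM in FKO, a ratio of 1.88 (1.85 to 1.91). KCNQ1-AS1 reached 10.9 CPM in FKO (6.68 in WT), and KCNQ1 itself had 12 and 35 UMIs.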

How the results depend on the processing

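The summed log2 ratio, 1.05 as reported, stayed positive under 12 settings. It was 1.19 with at most 5% mitochondrial UMIs, 1.11 in cells with a TPH2 UMI, 0.58 with the median gene ratio set to 0, 0.94 without mitochondrial and ribosomal genes in the totals, 0.98 with clusters weighted equally and 1.10 without clusters 5, 8 and 9 (added after seeing the data). The median of members, 0.995, was 1.11 in TPH2-positive cells, 0.52 with the median gene set to 0, 1.17 at a limit of 1 CPM and 1.32 at 50 CPM. The count of members at least 2-fold higher, 11 of 23, was 6 with the median gene set to 0 (5.75% of all genes), 29 of 55 at 1 CPM (29.5%) and 4 of 5 at 50 CPM (16.2%); the limits change which genes enter, all 5 passed 50 CPM only in FKO, which sets their direction, and for the other settings the cause was not tested. Clusters with a higher sum in FKO were 8 of 8, and 13 of 13 at resolution 0.5 and 6 of 6 with 15 dimensions. Without integration they were 3 of 3, as only 3 of the 6 clusters had at least 50 cells of each library. Ratios in those 3 ran from 0.51 to 1.07. Among 227 subfamily values and 281 values of named members, 63 and 59 moved beyond their counting interval and 0 with a ratio of at least 1 changed sign. Smaller ratios changed sign in 13 values, among them KCNG from 0.79 to -0.89 and KCNT from 0.15 to -0.33 at the 5% mitochondrial limit, and KCNJ2 from 0.28 to -0.19 with the median gene set to 0; 8 values had too few UMIs for a value (KCNA1, KCNJ5, KCNQ5 and KCNV). No paired analysis was possible because each condition had 1 library. Members below about 1 CPM rest on too few UMIs to rank.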
